A study of Mus musculus with 3 samples.

Results

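Lrba and the other 8 genes of the BEACH-domain family (Nbea, Nbeal1, Nbeal2, Lyst, Wdfy3, Wdfy4, Nsmaf and Wdr81) were described through their DNA methylation at 3 stages of mouse osteoclast formation. They are 9 of the 49997 genes in the RefSeq table of GRCm38, and all 9 were matched by symbol. A member region is a row of one of the authors' 3 tables of differing regions that overlaps the annotated span of a member by at least 1 bp. There were 413 member regions of 251946 in the table of pOC against BMM, 335 of 226632 in mOC against pOC, and 78 of 69337 in mOC against BMM. These make 619 distinct regions of 432641, of which 266 lie in Lrba and 79 in Nbea. Lrba was selected on measured values, since it stood out for its number of listed regions, and each region was itself chosen by the authors for a difference of at least 20 percentage points between 2 libraries. Counts and differences below are therefore descriptions without a test.

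Whole-genome bisulfite sequencing reads methylated cytosines as unconverted bases, so the share of methylated reads gives the methylation level. The cells came from bone marrow of C57BL/6 mice in postnatal week 11, and each stage is 1 bulk library without replicates. Mature osteoclasts (mOC) were made by 72 h or more of RANKL at 100 ng/mL with M-CSF at 30 ng/mL. Preosteoclasts (pOC) had the same factors for 24 h, and bone marrow macrophages (BMM) were marrow cells that floated after 24 h of culture and then had M-CSF alone at 50 ng/mL for 72 h. RANKL is the cytokine that drives macrophage precursors into osteoclasts, and M-CSF keeps them alive and dividing. All 3 groups were grown with M-CSF, and the labels name no mutation or inhibitor for any of them. In such bulk libraries, a change of level within each cell and a change in the mixture of cells cannot be told apart.

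BEACH-domain proteins are very large scaffolds that carry a BEACH domain next to WD40 repeats and steer the traffic of membrane vesicles, lysosomes and granules. Mutations in several of them cause inherited disorders of lysosome-related organelles, the class of compartment that osteoclasts also use when they release acid and proteases onto bone. LRBA protects the immune checkpoint receptor CTLA-4 from breakdown in lysosomes, and its loss in people causes immune deficiency with autoimmunity. Methylation across the body of a gene is usually high in mammalian cells, whereas promoters rich in CG are usually unmethylated.

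The sequences around the annotated starts of Lrba, Nbea, Nbeal2 and Wdfy4 are shown as examples that range between few and many CG, for the 2 longest members, the member without listed regions and the one with fewest CG. Like most windows of the RefSeq table, they held no listed region. They are RefSeq sequences of GRCm38.p6, with 250 bases before the start and 50 after it, 5′ to 3′ on the strand of the gene, and capitals mark each CG. The window of Lrba is chr3:86224440-86224739 on the plus strand, with 27 CG. That of Nbea is chr3:56183652-56183951 on the minus strand, with 36 CG. That of Nbeal2 is chr9:110654112-110654411 on the minus strand, with 18 CG, and that of Wdfy4 is chr14:33185017-33185316 on the minus strand, with 5 CG.
Lrba: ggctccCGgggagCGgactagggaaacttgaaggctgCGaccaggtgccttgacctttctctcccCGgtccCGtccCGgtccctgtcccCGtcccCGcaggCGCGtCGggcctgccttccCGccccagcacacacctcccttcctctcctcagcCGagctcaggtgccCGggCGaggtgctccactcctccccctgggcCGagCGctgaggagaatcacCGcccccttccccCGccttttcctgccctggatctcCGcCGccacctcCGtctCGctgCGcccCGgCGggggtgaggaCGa
Nbea: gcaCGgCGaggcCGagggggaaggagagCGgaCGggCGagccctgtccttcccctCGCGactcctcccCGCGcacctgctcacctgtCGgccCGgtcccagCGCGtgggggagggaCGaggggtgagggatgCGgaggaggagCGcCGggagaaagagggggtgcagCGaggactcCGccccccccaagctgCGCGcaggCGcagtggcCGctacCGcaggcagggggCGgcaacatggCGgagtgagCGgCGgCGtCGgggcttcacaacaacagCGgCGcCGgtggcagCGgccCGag
Nbeal2: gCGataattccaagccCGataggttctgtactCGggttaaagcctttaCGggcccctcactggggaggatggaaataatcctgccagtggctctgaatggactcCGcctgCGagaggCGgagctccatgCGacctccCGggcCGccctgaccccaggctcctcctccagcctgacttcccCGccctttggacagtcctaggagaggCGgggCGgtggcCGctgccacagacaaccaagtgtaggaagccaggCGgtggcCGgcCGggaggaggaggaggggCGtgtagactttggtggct
Wdfy4: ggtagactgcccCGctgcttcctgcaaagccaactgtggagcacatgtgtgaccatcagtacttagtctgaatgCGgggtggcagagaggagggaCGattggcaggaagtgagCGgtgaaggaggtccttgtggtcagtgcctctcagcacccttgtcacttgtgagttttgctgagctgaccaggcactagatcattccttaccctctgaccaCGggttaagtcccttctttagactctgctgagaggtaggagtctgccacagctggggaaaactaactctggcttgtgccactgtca

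Promoter windows were at hand for 7 of the 9 members (not for Wdfy3 and Nsmaf). Nbeal1, Lyst and Wdr81 had 30, 24 and 17 CG in theirs. Over all 32851 windows of the table the median was 7 CG, with quartiles of 3 and 20, so the windows of Lrba, Nbea, Nbeal1 and Lyst were above the upper quartile and that of Wdfy4 was below the median. No member window overlapped a listed region. Of all windows, 2.93% overlapped one in pOC against BMM, 2.52% in mOC against pOC and 0.743% in mOC against BMM. The E-box CACGTG was found in the window of Wdr81 and in none of the other 6, against 7.15% of all windows (both strands). TGANTCA, the site form bound by AP-1 factors, was in none of the 7, against 7.81% of all windows (both strands). Every listed region had at least 4 cytosines, 16 reads in each library and a difference of 20 points. In Lrba, regions of 4 cytosines had as few as 16 reads, but those of 8 cytosines had 32 or more. The reads needed for listing may thus rise with the number of cytosines. An unlisted window therefore has no level here and may be methylated or unmethylated at any stage.

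In pOC against BMM, 398 of the 413 member regions (96.4%) were lower in pOC and 15 were higher, against 92.9% lower among all listed regions. Reads summed over the member regions were 57.0% methylated in pOC (95% interval 56.3 to 57.7) and 85.2% in BMM (84.7 to 85.7). Over all listed regions of that table the summed levels were 46.9% in pOC and 73.5% in BMM. Intervals here and below are exact binomial (Clopper-Pearson) and cover counting error only. They are too narrow for the number of molecules, because a read that covers several cytosines of a region counts several times. The direction and the size of these differences were part of how the regions were listed, so nothing is read from the shares.

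Of the 9 members, 8 held at least 1 region lower in pOC, against 64.9% of 21900 protein-coding genes, and the exception was Nbeal2. Members differ in length from 13.9 kb (Wdr81) to 559.2 kb (Lrba), and a longer gene holds more regions, so the number per 100 kb of span was also used. Nsmaf had 40.9 and Lrba 35.2 listed regions per 100 kb in pOC against BMM. Wdfy3 followed with 23.4 and Wdfy4 with 19.6, then Lyst with 15.4, Nbeal1 with 14.4, Wdr81 with 7.21 and Nbea with 6.62. The median of 4945 protein-coding genes of 50 kb or more, of which 285 held no listed region, was 13.8 per 100 kb, with quartiles of 7.23 and 21.3. Lrba was 123rd among them and Nsmaf 45th, while Nbea was 3831st. Among the 990 protein-coding genes of 200 kb or more, whose median was 8.56, Lrba was 2nd and Nbea 608th.

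**Figure D1:**
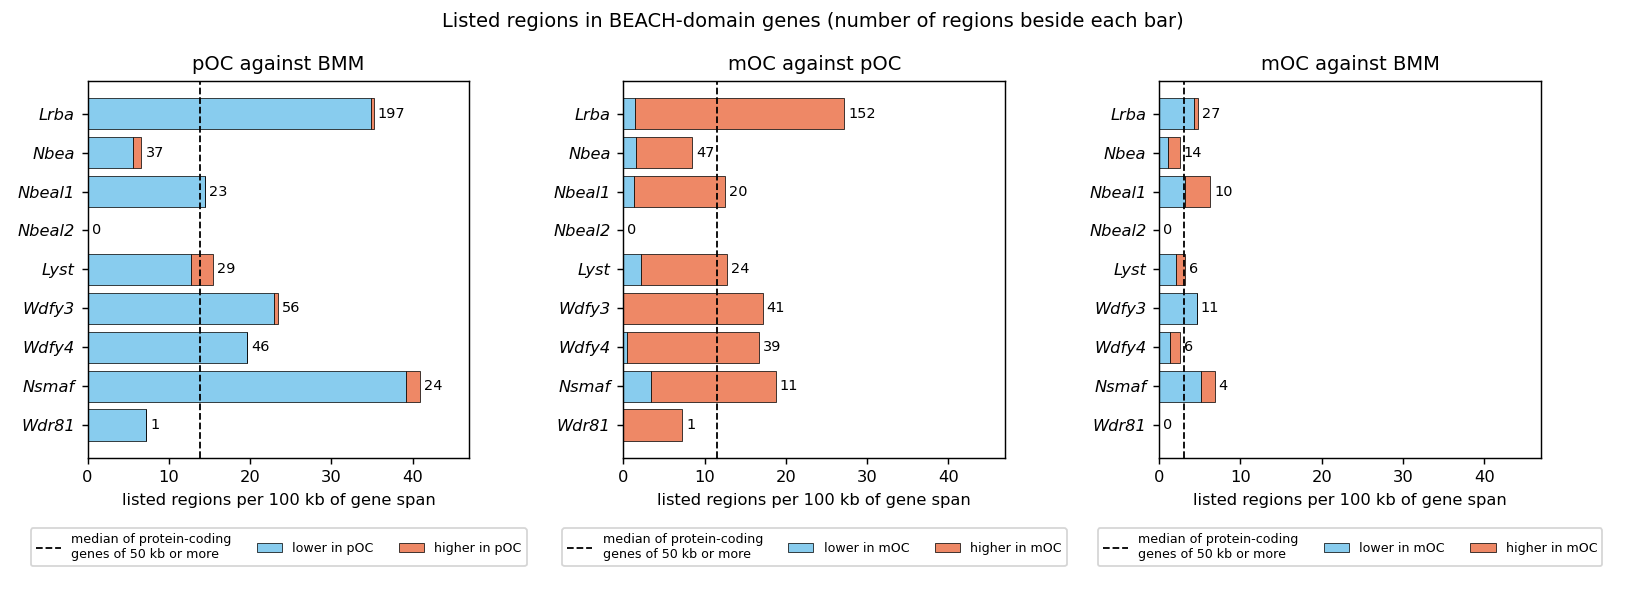
Listed regions per 100 kb of gene span (horizontal axis) for each of the 9 genes in the 3 comparisons, split by direction, with the number of regions beside each bar and the median of protein-coding genes of 50 kb or more as a dashed line. Lrba (197 regions) and Nsmaf (24) stand far right of the line in pOC against BMM, Nbea (37) stands left of it, and Nbeal2 has no listed region.

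Lrba and Nbea make the closest pair by length (559.2 and 558.6 kb, both on chromosome 3) and, among members of 50 kb or more, stand far apart in listed regions per 100 kb. Lrba spans chr3:86223456-86782694 on the plus strand, and its 197 regions in pOC against BMM were 195 lower and 2 higher in pOC. Their summed level was 58.4% in pOC (57.5 to 59.4, 9916 reads) and 87.1% in BMM (86.4 to 87.7, 10179 reads). In BMM, 170 of these 197 regions (86.3%) were at 80% or more, against 50.5% of all listed regions. Lrba thus entered the list mostly with regions that were highly methylated in BMM. Most other members did so too. The share at 80% or more in BMM was 91.3% in Wdfy4, 87.5% in Nsmaf, 82.1% in Wdfy3, 75.9% in Lyst and 69.6% in Nbeal1, but 24.3% in Nbea. The middle of the Lrba regions lay between 51.5 and 67.5% in pOC and between 84.4 and 94.6% in BMM (quartiles over regions).

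Those regions ran along the whole gene. Cut into 10 equal parts 5′ to 3′, Lrba held 15 to 24 listed regions in each, with summed levels of 55.4 to 61.1% in pOC and 82.6 to 89.2% in BMM. The median gap between neighbouring regions was 1.9 kb and the longest 13.6 kb. Summed over these parts, the level in listed regions hence varied little along the gene, and none of the parts stood without them. Single regions of Lrba ran between 10 and 81.8% in pOC and between 34.4 and 100% in BMM. The listed regions covered 7.47% of the span, so most of the gene has no level here. Outside the gene, the 100 kb at lower coordinates held 33 listed regions and the 100 kb at higher coordinates 26, next to 35.2 per 100 kb inside. Both flanks thus held listed regions too, at lower densities than the gene in pOC against BMM. In the other 2 comparisons both flanks were denser than the gene. They held 32 and 28 in mOC against pOC, next to 27.2 per 100 kb inside, and 7 and 7 in mOC against BMM, next to 4.83.

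Nbea, the neuronal member, spans chr3:55625195-56183748 on the minus strand. It encodes neurobeachin, which anchors protein kinase A and sorts receptors to synapses. Its 37 regions in pOC against BMM were 31 lower and 6 higher in pOC, with a summed level of 36.2% in pOC (33.5 to 38.9, 1278 reads) and 58.7% in BMM (56.0 to 61.4, 1344 reads). In BMM, 9 of the 37 (24.3%) were at 80% or more, and the levels ran between 5.56 and 93.5%. In the same 10 equal parts, Nbea held 1 to 8 regions, with summed levels of 13.5 to 54.3% in pOC and 27.0 to 83.7% in BMM. The median gap was 10 kb and the longest 60.2 kb. Nbea therefore had fewer listed regions than Lrba at nearly the same length, and those it had were lower and more mixed in BMM. The quartiles over regions in BMM were 40.8 and 77.2% in Nbea, next to 84.4 and 94.6% in Lrba. Coverage differed as well, with a median of 8 reads per cytosine in pOC and 8.25 in BMM over the listed Lrba regions, against 6 in both libraries over those of Nbea. Over all listed regions these medians were 6.22 in pOC and 6.25 in BMM, and the part of coverage in the number of regions was not tested. Its flanks held 9 and 3 listed regions per 100 kb, next to 6.62 inside.

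**Figure D2:**
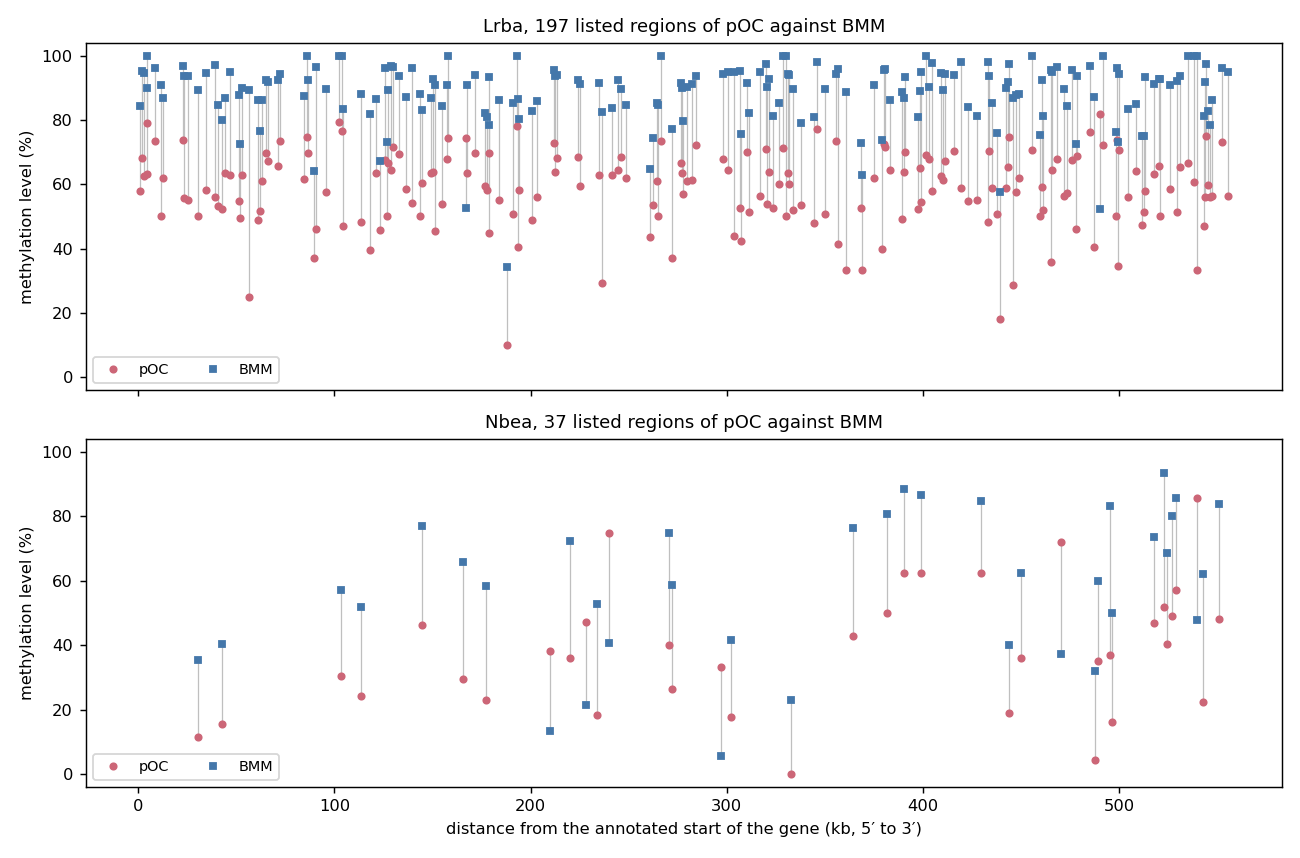
Methylation level (%, vertical axis) of each listed region of pOC against BMM along Lrba (197 regions) and Nbea (37 regions), by distance from the annotated start in kb, with pOC as circles, BMM as squares and a line joining the 2 levels of a region. In Lrba most BMM squares lie at 80% or more with pOC circles below them along the whole gene, whereas in Nbea the regions are sparse and the BMM levels spread between 5.56 and 93.5%.

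For each gene, the region of greatest difference is given below among those with 30 reads or more in both libraries (for Wdr81 the 1 region of each table). Since it was picked for its difference, the distance between its intervals is a description and supports nothing. In Lrba this region lies 539.8 kb into the gene at chr3:86764401-86764600 and has 8 cytosines. It had 40 of 40 reads methylated in BMM (100%, 91.2 to 100), 33.3% of 39 reads in pOC (19.1 to 50.2) and 82.9% of 35 reads in mOC (66.4 to 93.4). The same region was the greatest of Lrba in pOC against BMM and in mOC against pOC, which share the pOC reads.

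Near the start of Lrba, 2 regions within 2 kb were listed in both of those tables. The first, 810 bp past the start (chr3:86225401-86225600, 10 cytosines), was at 84.3% in BMM (51 reads), 58.0% in pOC (69 reads) and 78.2% in mOC (119 reads). The second, 1810 bp past the start (chr3:86226401-86226600, 4 cytosines), was at 95.2% in BMM (105 reads), 68.2% in pOC (22 reads) and 92.2% in mOC (77 reads). Upstream of the gene, 1590 bp before the start and outside the annotated span (chr3:86223001-86223200, 4 cytosines), the level was 89.0% in BMM (109 reads), 64.3% in pOC (42 reads) and 87.5% in mOC (88 reads). Listed regions with the lowest level at pOC therefore stood on both sides of the CG-rich Lrba window printed above (distances are those of region midpoints from the annotated start).

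The other members with a listed region within 2 kb of the start, inside their span, were Nbeal1 and Wdfy4. In Nbeal1, a region 1103 bp past the start (chr1:60181603-60181802, 4 cytosines) had 34.2% in mOC (19.6 to 51.4, 38 reads) and 6.98% in pOC (1.46 to 19.1, 43 reads). The neighbouring 200 bp (chr1:60181803-60182002) had 16.7% in pOC (3.58 to 41.4, 18 reads) and 50.0% in BMM (24.7 to 75.3, 16 reads). These were low levels for a member, and the last pair of intervals overlaps. In Wdfy4, a region 1434 bp before the start used for its promoter (chr14:33186401-33186600), still within the span, was at 61.9% in pOC (21 reads) and 90.2% in BMM (41 reads). Nbea and Lyst had no listed region within 5 kb of their starts.

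Nbeal2, the member needed for the alpha granules of platelets, and Wdr81, an endosomal protein, are the shortest (29.4 and 13.9 kb). Nbeal2 (chr9:110624789-110654161) had no listed region in any of the 3 tables, although its flanks of 100 kb held 26 and 13 in pOC against BMM. The region nearest to its start, 1339 bp before it and outside the span (chr9:110655401-110655600, 16 cytosines), was at 80.3% in BMM (71 reads), 57.9% in pOC (95 reads) and 59.6% in mOC (89 reads). It was listed against BMM at both later stages. The adjoining 200 bp (chr9:110655601-110655800, 12 cytosines) was listed as higher in mOC, at 62.5% (80 reads) against 34.8% in pOC (69 reads). Next to each other upstream of Nbeal2, 1 bin was thus listed as lower than BMM at both later stages and the other as higher in mOC than in pOC.

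Wdr81 (chr11:75440943-75454808) held 1 region in pOC against BMM and 1 in mOC against pOC. The first (chr11:75443202-75443401, 8 cytosines) was at 72.6% in pOC (60.9 to 82.4, 73 reads) and 94.6% in BMM (85.1 to 98.9, 56 reads). The second (chr11:75442402-75442601, 6 cytosines) was at 85.3% in mOC (76.9 to 91.5, 102 reads) and 61.3% in pOC (42.2 to 78.2, 31 reads), and these intervals overlap. Outside the span, 2784 bp before the start (chr11:75457402-75457601, 14 cytosines), the level was 80.6% in BMM (103 reads), 36.8% in pOC (87 reads) and 70.9% in mOC (103 reads). Further upstream, 3184 bp before the start (chr11:75457802-75458001, 6 cytosines), it was 92.1% in BMM (38 reads), 60.5% in pOC (38 reads) and 70.6% in mOC (34 reads). That region was listed as lower than BMM at both later stages. Within 5 kb of the Wdr81 start, regions were listed only upstream and outside the span, so none inside the gene could be set beside them there.

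Wdfy3, the scaffold also called ALFY that brings protein aggregates to autophagosomes, spans chr5:101832953-102072215. Of its 56 regions in pOC against BMM, 55 were lower in pOC, with summed levels of 58.6% in pOC (56.6 to 60.6) and 89.1% in BMM (87.8 to 90.2). The greatest difference was in a region of 14 cytosines at chr5:101888001-101888200, with 49.2% in pOC (36.4 to 62.1, 63 reads) and 95.5% in BMM (87.5 to 99.1, 67 reads). All 41 of its regions in mOC against pOC were higher in mOC. The greatest of these was chr5:102066601-102066800, with 94.3% in mOC (80.8 to 99.3, 35 reads) and 38.6% in pOC (24.4 to 54.5, 44 reads).

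Wdfy4, which dendritic cells need to present antigen taken up from other cells, spans chr14:32959547-33193855. All 46 of its regions in pOC against BMM were lower in pOC, with 60.2% in pOC (58.0 to 62.5) and 91.2% in BMM (89.8 to 92.4). At chr14:33128001-33128200, 20 of 41 reads were methylated in pOC (48.8%, 32.9 to 64.9) and 42 of 42 in BMM (100%, 91.6 to 100). In mOC against pOC, 38 of 39 were higher in mOC, led by chr14:33059401-33059600 with 96.3% in mOC (87.3 to 99.5, 54 reads) and 56.1% in pOC (45.7 to 66.1, 98 reads). With levels at all 3 stages, the widest range in Wdfy4 was at chr14:33089801-33090000 (6 cytosines), with 96.8% in BMM (83.3 to 99.9, 31 reads), 50.0% in pOC (32.4 to 67.6, 34 reads) and 87.5% in mOC (71.0 to 96.5, 32 reads). The gene Lrrc18 lies within the Wdfy4 span and held 4 of its regions in pOC against BMM.

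Nsmaf, which couples the TNF receptor to neutral sphingomyelinase, spans chr4:6396207-6454840. It had 24 regions in pOC against BMM, 23 of them lower in pOC, with 58.5% in pOC (55.2 to 61.7) and 89.8% in BMM (87.6 to 91.8). Its flanks held 19 and 8 listed regions in 100 kb, next to 40.9 inside. Its greatest difference was at chr4:6402603-6403002 (8 cytosines), with 42.6% in pOC (28.3 to 57.8, 47 reads) and 86.8% in BMM (71.9 to 95.6, 38 reads). It had 11 regions in mOC against pOC, 9 of them higher in mOC, led by chr4:6411803-6412002 (8 cytosines) with 97.2% in mOC (85.5 to 99.9, 36 reads) and 56.2% in pOC (41.2 to 70.5, 48 reads).

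Lyst, the regulator of lysosome size that is mutated in beige mice, spans chr13:13590311-13778803. It was more mixed than the preceding genes, with 24 regions lower and 5 higher in pOC against BMM. Its greatest difference was chr13:13680204-13680403 (4 cytosines), at 95.7% in BMM (85.5 to 99.5, 47 reads), 34.5% in pOC (22.5 to 48.1, 58 reads) and 87.5% in mOC (71.0 to 96.5, 32 reads). The opposite course was listed at chr13:13612604-13612803 (8 cytosines), a region picked out after its values were seen, with 31.7% in BMM (60 reads), 75.6% in pOC (41 reads) and 34.5% in mOC (55 reads). Another course was a level that was higher at both later stages, at chr13:13658204-13658403 (8 cytosines), with 35.3% in BMM (25.2 to 46.4, 85 reads), 66.7% in pOC (52.9 to 78.6, 57 reads) and 67.0% in mOC (56.2 to 76.7, 88 reads). It was the only such region among the 205 member regions with levels at all 3 stages.

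Nbeal1, a close relative of Nbea whose role is less well known, spans chr1:60178740-60338328, and its 23 regions in pOC against BMM were all lower in pOC. Their summed level was 54.3% in pOC (51.2 to 57.5) and 84.1% in BMM (81.5 to 86.4). The greatest difference was at chr1:60301603-60302002 (8 cytosines), with 80.9% in BMM (69.5 to 89.4, 68 reads), 31.9% in pOC (19.1 to 47.1, 47 reads) and 66.0% in mOC (51.7 to 78.5, 53 reads). At chr1:60202603-60202802 (6 cytosines) the region was listed in all 3 tables, with 67.9% in BMM (53 reads), 45.8% in pOC (59 reads) and 25% in mOC (44 reads). It is the only member region that was listed as lower at each step. The greatest difference of Nbeal1 in mOC against pOC was at chr1:60210003-60210202 (6 cytosines), with 81.1% in mOC (64.8 to 92.0, 37 reads) and 44.4% in pOC (29.6 to 60.0, 45 reads).

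**Figure D3:**
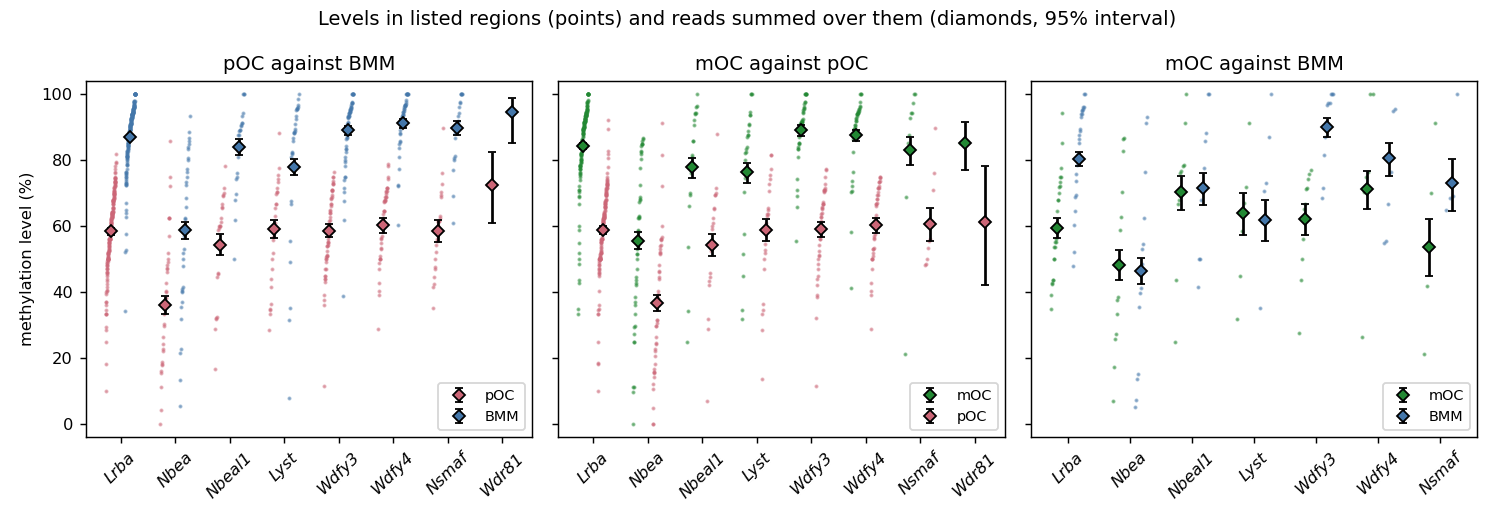
Methylation level (%) of listed regions for each gene in the 3 comparisons, with the later stage left of the earlier one, small points for single regions and diamonds for reads summed over them with exact 95% intervals (counting error only). In pOC against BMM the pOC diamonds lie below the BMM diamonds in all 8 genes with regions, and Nbea is the lowest in both, with 36.2% in pOC and 58.7% in BMM.

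In mOC against pOC, 309 of the 335 member regions were higher in mOC and 26 were lower, against 89.1% higher among all listed regions of that table. Again 8 of 9 members held a region in that direction, against 64.4% of protein-coding genes of any length. Of the 4945 genes of 50 kb or more, 274 held no listed region in that table, so length alone can give such a share. Lrba had 152 regions, 144 of them higher in mOC, with summed levels of 84.3% in mOC (83.4 to 85.2) and 58.8% in pOC (57.7 to 60.0). Nbea had 47, of which 38 were higher, with 55.7% in mOC (52.9 to 58.4) and 36.7% in pOC (34.2 to 39.2). Nbeal1 had 18 of 20 higher and Lyst 20 of 24. As deposited, Nbea was the only member with more listed regions in this comparison than in pOC against BMM (47 against 37). The pOC library is part of both. The deposited p-values, however, reach 0.0917 in this comparison and 0.05 in pOC against BMM. With those at most 0.05 in both, Nbea had 34 regions in mOC against pOC and 37 in pOC against BMM, so the order was reversed. The greatest Nbea difference among regions with 30 reads or more in both libraries was at chr3:55979001-55979200 (6 cytosines), with 82.9% in mOC (66.4 to 93.4, 35 reads) and 44.1% in pOC (27.2 to 62.1, 34 reads).

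In mOC against BMM, 78 member regions were listed, 56 lower in mOC (71.8%) and 22 higher, against 58.9% lower among all listed regions. Regions lower in mOC were found in 7 of the 9 members, against 35.9% of protein-coding genes of any length, with Nbeal2 and Wdr81 without any. All members but these 2 span 50 kb or more. Of the 4945 protein-coding genes that long, 574 held no listed region in either direction, so nothing is read from the count of members. Lrba had 24 lower and 3 higher, with 59.6% in mOC (56.5 to 62.5) and 80.4% in BMM (78.2 to 82.4). All 11 of Wdfy3 were lower in mOC, with 62.1% in mOC (57.4 to 66.7) and 90.2% in BMM (87.1 to 92.7). Nbea had 6 lower and 8 higher in mOC, Nbeal1 5 and 5, Wdfy4 3 and 3. The summed levels of Nbea were 48.2% in mOC and 46.4% in BMM, with intervals that overlap. The density of Lrba in this comparison was 4.83 per 100 kb, next to a median of 3.08 over protein-coding genes of 50 kb or more, and its place among them was 1254th of 4945.

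Among regions with 30 reads or more in both libraries, the greatest differences between mOC and BMM were up to 43.8 points in size. In Nsmaf, chr4:6444203-6444402 (8 cytosines) was at 65.0% in BMM (40 reads), 48.6% in pOC (37 reads) and 21.2% in mOC (33 reads). In Wdfy3, chr5:102012001-102012200 (6 cytosines) was at 71.4% in BMM (42 reads), 36.1% in pOC (36 reads) and 27.7% in mOC (47 reads). In Wdfy4, chr14:33165001-33165400 (14 cytosines) was at 70.3% in mOC (58.5 to 80.3, 74 reads) and 95% in BMM (88.8 to 98.4, 101 reads). The Nsmaf region was also listed as lower in mOC than in pOC. The Wdfy3 region was not listed between those stages (20.8 to 53.8% in pOC, 15.6 to 42.6% in mOC). In both regions the intervals of pOC and mOC overlap. In Lrba, chr3:86342801-86343000 (4 cytosines) was at 81.8% in BMM (33 reads), 39.6% in pOC (48 reads) and 42.5% in mOC (40 reads), lower than in BMM at both later stages.

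Levels at all 3 stages were at hand for the 205 member regions listed in 2 or 3 tables, since the tables give counts only for the 2 libraries compared. Of these, 161 were lower in pOC than in BMM and higher in mOC than in pOC. Another 22 were lower than BMM at both pOC and mOC, 9 were higher in mOC than in both earlier stages, 7 were lower in mOC than in both, 5 were highest at pOC and 1 was higher at both later stages. The pOC library is shared by the 2 tables that define the first group, so both differences of such a region rest on the same pOC reads. Nothing is read from the size of that group. Over the whole series, 82392 regions were listed in both tables with pOC, 17128 in both with BMM and 17210 in both with mOC. Their courses were not counted, so no course is shown to be particular to these genes. The other 414 regions were listed in 1 table and have no level at the remaining stage.

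In the 94 Lrba regions of the first group, the median level was 89.6% in BMM, 57.2% in pOC and 88.5% in mOC. The median difference of mOC minus BMM was -0.36 points (range -20.0 to 17.5), and 79 of the 94 were within 10 points. In the 20 such regions of Wdfy3 the medians were 91.4% in BMM, 55.3% in pOC and 90.6% in mOC, and in the 15 of Wdfy4 they were 85.7, 53.1 and 89.5%. In the 11 of Lyst they were 90.9, 50.0 and 87.5%, in the 7 of Nbeal1 87.5, 60.0 and 90.7%, and in the 5 of Nsmaf 94.4, 56.2 and 94.4%. Nbea started and ended lower, with 65.9% in BMM, 29.6% in pOC and 67.4% in mOC over 9 regions. Both differences had to reach 20 points above the same pOC reads for a region to enter this group. Its low pOC medians, and much of the closeness of mOC to BMM between that limit and 100%, follow from how it was made. In 1 of its regions, Wdfy3 chr5:101857001-101857200, the level was also listed as lower in mOC than in BMM, with 100% in BMM (24 reads), 45% in pOC (20 reads) and 74.2% in mOC (31 reads).

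**Figure D4:**
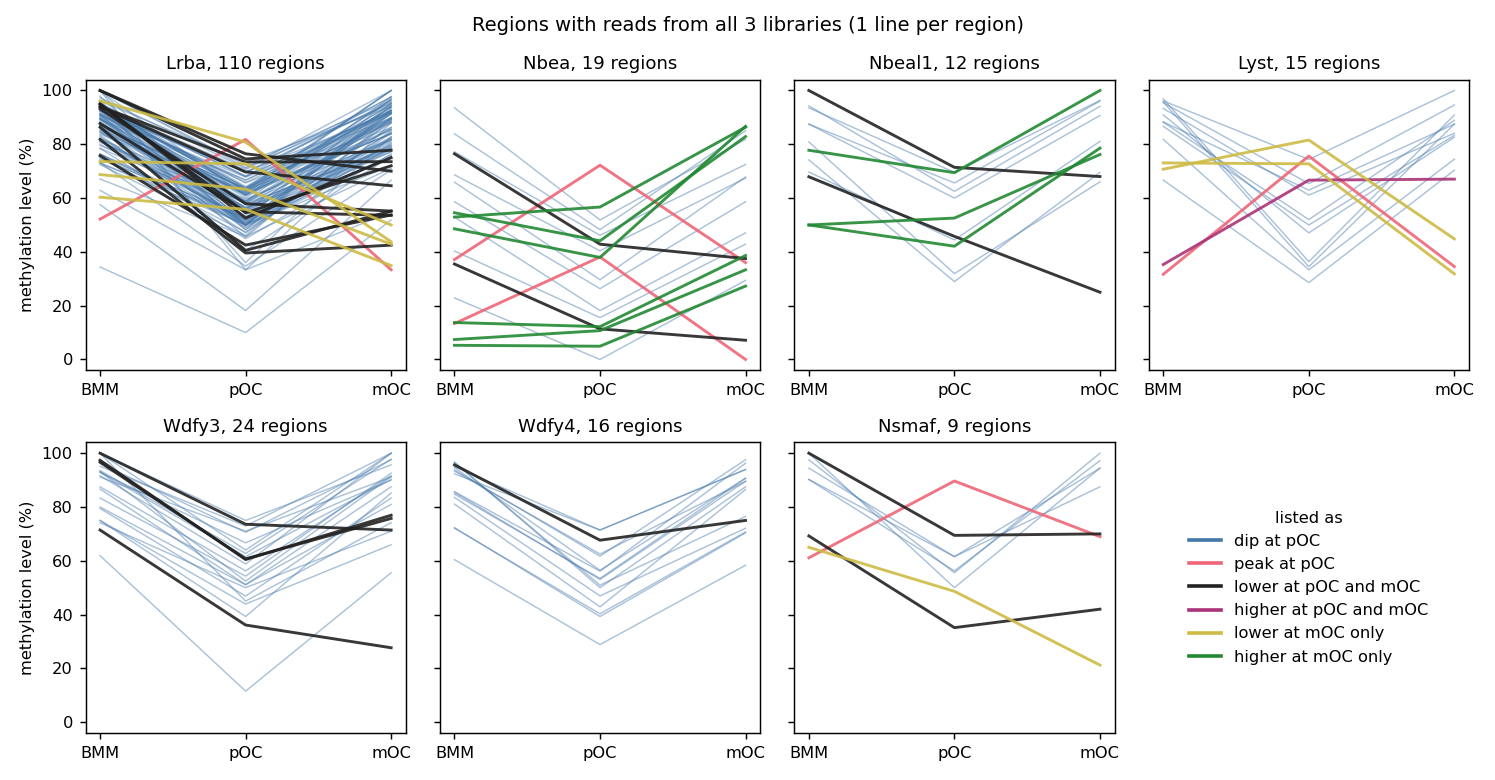
Methylation level (%, vertical axis) in BMM, pOC and mOC of the 205 regions with reads from all 3 libraries, 1 line per region and 1 panel per gene, coloured by the direction in which the tables list them. Most lines of Lrba (94 of 110) fall at pOC and are high again at mOC, whereas in Nbea 6 of 19 lines are listed as higher at mOC only and start between 5.26 and 54.5% in BMM.

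Regions listed with another course made up 16 of the 110 in Lrba and 10 of the 19 in Nbea. The share of such courses over all listed regions was not computed. In Lrba, 11 regions were lower at both later stages, with medians of 93.9% in BMM, 54.9% in pOC and 64.6% in mOC, and 4 were lower at mOC only. The region with most cytosines among the 11, named after its values were seen, was chr3:86532001-86532200 (26 cytosines), with 75.8% in BMM (69.7 to 81.1, 231 reads), 42.5% in pOC (36.4 to 48.9, 254 reads) and 53.7% in mOC (44.9 to 62.4, 134 reads). Its reads compare with a median of 44 in BMM and 42 in pOC per listed Lrba region of pOC against BMM. In Nbea, 6 regions were higher at mOC only, with medians of 31.1% in BMM, 25.1% in pOC and 60.7% in mOC. The one with the highest mOC level, also the Nbea region with the widest difference between mOC and pOC at any depth, lies near the 3′ end of the gene at chr3:55640601-55640800 (6 cytosines), with 48.6% in BMM (31.4 to 66.0, 35 reads), 37.9% in pOC (20.7 to 57.7, 29 reads) and 86.7% in mOC (69.3 to 96.2, 30 reads). Next to it lies chr3:55640801-55641200, at 22.2% in pOC (12.0 to 35.6, 54 reads) and 62.1% in BMM (48.4 to 74.5, 58 reads). Among Nbea regions with 30 reads or more in both libraries, it had the greatest difference in pOC against BMM. At any depth, the greatest was 46.3 points, in another region.

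Lrba also carries another protein-coding gene inside its span, Mab21l2 (chr3:86546050-86548283), which belongs to the Mab-21 family known from eye development in mice, and Nbea carries its relative Mab21l1. The regions there are described because reads in the shared stretch cannot be given to one gene or the other. At the Mab21l2 end with the higher coordinates, chr3:86548201-86548600 had 32 cytosines, the most of any Lrba region in pOC against BMM. Its level was 81.2% in BMM (75 to 86.5, 192 reads), 52.6% in pOC (45.3 to 59.9, 190 reads) and 86.3% in mOC (80.8 to 90.7, 204 reads). The 200 bp next to it (chr3:86548001-86548200, 12 cytosines) were at 94.2% in mOC (84.1 to 98.8, 52 reads) and 69.4% in BMM (54.6 to 81.7, 49 reads), 1 of the 3 Lrba regions listed as higher in mOC than in BMM. Mab21l1 held 1 listed region in pOC against BMM and none in the other tables.

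The 2 exceptions of Lrba in pOC against BMM, chosen for their direction, were higher in pOC. At chr3:86391601-86391800 (8 cytosines) the level was 74.4% in pOC (63.6 to 83.4, 82 reads) and 52.6% in BMM (39.0 to 66.0, 57 reads). At chr3:86715001-86715200 (4 cytosines) it was 81.8% in pOC (22 reads) and 52.2% in BMM (23 reads), and 33.3% in mOC (18 reads). Intervals overlap between pOC and BMM in both. At the edge of what was listed, the smallest difference of Lrba in pOC against BMM was 20.3 points, and regions that differed by less than 20 points are not analysed here.

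Genes with a pattern most like that of Lrba were sought among 1068 genes of 200 kb or more by the Euclidean distance in listed regions per 100 kb, over 6 values (3 comparisons, each direction) from the same 3 libraries. The closest were Vav3 (distance 2.80), Btbd9 (3.95) and Ap3b1 (4.09), a subunit of the AP-3 adaptor that sorts proteins to lysosome-related organelles. Vav3 had 33.6 regions per 100 kb lower in pOC than in BMM and Ap3b1 31.8, next to 34.9 in Lrba. In mOC against pOC, those higher in mOC were 25.8 per 100 kb in Vav3, 23.6 in Ap3b1 and 25.7 in Lrba. Likeness here is of counts alone.

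Other genes of the pathways in which the members work were taken as 5 lists with 74 entries, all matched. Among 25 genes of vesicle and endosome sorting, 21 held a region lower in pOC than in BMM, 20 one higher in mOC than in pOC and 12 one lower in mOC than in BMM. The 13 genes of exocytosis and granules gave 11, 10 and 4, and the 16 of autophagy, the setting of Wdfy3, gave 15, 12 and 9. The 12 genes of protein kinase A and of other proteins that anchor it, as neurobeachin does, gave 12, 12 and 9. The 8 of TNF receptor signalling around Nsmaf gave 2, 2 and 1. Over all protein-coding genes those shares are the 64.9, 64.4 and 35.9% given above, with a median of 2, 2 and 0 regions per gene. Medians in the lists for pOC against BMM were 5, 2, 5, 16 and 0 regions per gene, in the order named, and the lists differ in gene length. In pOC against BMM, the genes with most regions were Ap3b1 (66 lower, 1 higher in pOC) and Vps41 (39 lower) for sorting, Myo5a (24 lower) and Stx7 (12 lower, 1 higher) for exocytosis, Atg7 (30 lower) and Pik3c3 (26 lower) for autophagy, Akap13 (67 lower) and Akap6 (50 lower, 6 higher) for anchoring, and Smpd3 (6 lower) and Eed (5 lower) around Nsmaf.

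Reads behind these values were few. Over all listed regions the median was 31 to 37 reads per region and library, and about 6 reads per cytosine. The markers of cell type could only be counted, since methylation in listed regions is no measure of expression. Regions of pOC against BMM were listed in 4 of 5 macrophage markers, 7 of 7 osteoclast markers, 2 of 3 T cell markers and 0 of 2 B cell markers. Of all protein-coding genes, 64.9% held a region lower in pOC, while the marker counts take either direction. Gene lengths were not matched, so these counts show no pattern by cell type and do not check the labelled stages. Where regions were listed in 2 tables, the counts of the library in common were identical in all 82392 (pOC), 17128 (BMM) and 17210 (mOC) of them.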

How the data were processed

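Whole-genome bisulfite sequencing was analysed in 3 libraries, 1 per stage, through 3 tables that each compare 2 libraries. The stages were matched to the tables by the hours of RANKL in the table headings. Per the file headers, the authors deposited 2 read counts per region and library, the methylated reads and the total, each added up over the region's cytosines. They also give the methylation level as a fraction, which equalled methylated reads over all reads in every deposited row, the number of cytosines as deposited by the authors, and the authors' deposited p-value. Those p-values were used only to filter regions, for 1 count of Nbea regions and in the closing section. In the deposited tables every region was built of 200 bp bins and had at least 4 cytosines, 16 reads per library and a difference of 20 points. The p-values reached 0.05 in the tables of pOC against BMM and mOC against BMM, and 0.0917 in mOC against pOC. The submitters' processing notes give GRCm38 as the build and list FastQC, StringTie and HISAT2 without saying what each did. How reads were aligned and regions called is not given in the sources used here, and the depth of whole libraries is not analysed here.

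Regions were assigned to genes by overlap of at least 1 bp with RefSeq spans of GRCm38.p6 in Python 3.11.15 (pandas 2.3.3, numpy 2.4.6, SciPy 1.17.1, matplotlib 3.10.9). Coordinates are those of the tables. Levels are methylated reads over all reads, with exact binomial 95% intervals. With 1 library per stage no test was made and no p-value computed. The scripts were tested on simulated data. For each gene and table the text names the region of greatest difference with 30 reads or more in both libraries (all regions where none has), every region within 2 kb of an annotated start, and the region with the widest range over 3 stages. All other named regions are to be taken as chosen after their values were seen, also where the text does not say so. The members, gene lists, tests and alternatives were chosen with earlier results of these data known.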

Additional observations from a re-analysis of the deposited data

How the results depend on the processing

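Pooled differences between stages were also computed as an unweighted mean over regions and from regions with 30 reads or more in both libraries. They were -28.2 points in pOC minus BMM (-28.6 and -27.6 under the alternatives), 24.9 in mOC minus pOC (25.1 and 25.8) and -12.9 in mOC minus BMM (-13.2 and -11.1). Every region was listed for a difference of 20 points or more, so nothing is read from their stability. Counts of member regions depended on the filter. With the authors' deposited p-value at most 0.001, a difference of 30 points or more, 30 reads or more in both libraries, or 8 cytosines or more, the 398 regions lower in pOC than in BMM became 88, 169, 258 and 108, and the 15 higher became 1, 8, 6 and 4. In mOC against pOC the 309 higher became 33, 116, 159 and 69, and the 26 lower became 1, 10, 8 and 3. In mOC against BMM the 56 lower became 3, 21, 30 and 14, and the 22 higher became 0, 7, 14 and 6. Without Lrba 203 were lower in pOC than in BMM, 165 higher in mOC than in pOC and 32 lower in mOC than in BMM. The share lower was 98.9% (p-value filter) and 94.0% (without Lrba), against 96.4%, in pOC against BMM. In mOC against pOC it was 2.94% (p-value), 4.79% (reads) and 4.17% (cytosines), against 7.76%, and in mOC against BMM 100% (p-value) and 62.7% (without Lrba), against 71.8% for all members and 58.9% of all listed regions. Fewer regions enter under each filter by its construction. The 161 regions lowest at pOC became 88 with 30 reads in each library and 61 with 30 points in both tables. Reads per region limit every single value, and no replicate shows the spread between cultures. No paired analysis was possible because each stage has 1 library.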

Other observations

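Inside the span of Lrba, the lncRNA gene Gm31677 (chr3:86531509-86551597), which encloses Mab21l2, held 10 of the 197 Lrba regions of pOC against BMM, 8 of the 152 of mOC against pOC and 3 of the 27 of mOC against BMM. In Nbea, the lncRNA gene Gm31914 (chr3:55883302-56017075) held 9 of 37, 8 of 47 and 4 of 14. Gm31914 covers 133774 of the 558554 bp of Nbea, and Gm31677 covers 20089 of the 559239 bp of Lrba. A longer stretch holds more regions, so nothing is read from these counts. The 100 kb beside Wdfy4 were uneven in pOC against BMM, with 8 listed regions at lower coordinates and 21 at higher ones.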
